A study of Mus musculus with 20 samples.

Results

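The myosin-intron miRNAs miR-208a, miR-208b and miR-499 were followed through 20 small RNA libraries of mouse heart. Their members were taken by name from the deposited table: miR-208a-3p, miR-208a-5p, miR-208b-3p, miR-208b-5p and miR-499-5p, 5 of the 1545 entries listed. The hearts came from C57BL/6J mice in 4 groups. There were 5 sham hearts, 4 hearts with myocardial infarction (MI), 4 with CIH and 7 with both (MI+CIH). Each library is called a heart here, although the labels do not say that libraries of a group come from separate animals. CIH is given by its letters only and is read here as chronic intermittent hypoxia. The title of the series places the work in the worsening of remodelling after infarction by disordered breathing in sleep, so MI+CIH against MI is the comparison closest to its question. The age and sex of the mice, the way the infarct was made, its time and the length of CIH are not given in the sources used here. The tissue is labelled heart, so infarct, border and remote muscle cannot be told apart, nor can fewer muscle cells and less of a miRNA per muscle cell.

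Some genes of the myosin heavy chains carry a miRNA in an intron, and these miRNAs are often called myomiRs. Myh6, the host of miR-208a, encodes the fast alpha chain that dominates in the adult mouse ventricle. Myh7, the host of miR-208b, encodes the slow beta chain, which is raised in the fetal and the stressed heart, and Myh7b hosts miR-499. A hairpin is cut into a duplex of a 5p and a 3p strand, or arm, and as a rule one of them is loaded into the silencing complex and kept. Targets are chosen mainly through the seed, bases 2 to 8 counted from the 5′ end.

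The mature sequences are shown because the members are related through them: the arms that dominate share most of a seed, and the 2 arms of miR-208a do not. They are RefSeq's, of build GRCm38.p6, with the seed in capitals.
miR-208a-3p: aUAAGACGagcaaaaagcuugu
miR-208b-3p: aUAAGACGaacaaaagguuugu
miR-499-5p: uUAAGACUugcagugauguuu
miR-208a-5p: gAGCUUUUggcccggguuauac
miR-208b-5p: aAGCUUUUugcucgcguuaugu

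miR-208a-3p and miR-208b-3p had the same seed, which no other of the 1679 mature mouse miRNAs in that table carried. They were identical at 19 of 22 bases, and the differences, counted from the 5′ end with the base of miR-208a-3p first, were G10A, A16G and C18U. miR-499-5p shared bases 2 to 7 with both and differed from them at the last seed base (G8U against miR-208a-3p). The 5p arms of miR-208a and miR-208b carried another seed, AGCUUUU, found in 1 further entry, miR-6415, and were identical at 16 of 22 bases. How reads that fit both miR-208a and miR-208b were assigned is not given in the sources used here.

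The miR-208a hairpin is shown with both arms in capitals, since its arms carry the main pattern below, and the miR-208b hairpin is shown for comparison.
Mir208a: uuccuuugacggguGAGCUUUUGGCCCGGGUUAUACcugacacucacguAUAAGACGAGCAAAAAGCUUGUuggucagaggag
Mir208b: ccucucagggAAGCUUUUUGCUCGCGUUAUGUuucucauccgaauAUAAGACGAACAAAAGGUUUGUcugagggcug

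In GRCm38 the Mir208a hairpin lies at chr14:54949060-54949142 on the minus strand, in intron 29 of 38 of Myh6. Mir208b lies at chr14:54975700-54975776 on the minus strand, in intron 31 of 40 of Myh7, the neighbouring gene, and 26557 bases separate the 2 hairpins. Mir499 lies at chr2:155622880-155622958 on the plus strand, in intron 19 of 41 of Myh7b. In the GENCODE annotation each was on the strand of its host and overlapped no exon of a host transcript that spans it, as the name of the group says. The mRNAs of the hosts were not measured in these libraries.

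Values are given in RPM, reads of a miRNA per 1000000 miRNA reads of its library. The libraries held 1991323 to 18138415 reads, so that 1 read was worth 0.0551 to 0.502 RPM. An entry with 0 reads could still be present at up to 0.165 to 1.51 RPM (3 reads), and these limits, like the intervals below, cover counting error only. The libraries were clustered over 348 entries, with the members and other muscle miRNAs left out. The number of sets was fixed at 3 and was not found by the clustering. The sets are called A, B and C here, and the labels give no name for them. The 11 libraries of set A were the 5 sham and the 4 CIH libraries, MI replicate 2 and MI+CIH replicate 1. The 6 of set B were replicates 1 and 3 of MI with replicates 2 to 5 of MI+CIH. The 3 of set C were MI replicate 4 with replicates 6 and 7 of MI+CIH. Correlations over the same entries were 0.904 to 0.994 within sets and 0.690 to 0.928 between them. These entries defined the sets, so the difference is partly built in, and the 2 ranges overlapped. Because no sham or CIH library lies outside set A, infarction and library set cannot be told apart for most of the infarcted hearts. Sham 1 stood apart from the other sham libraries and MI 2 lay among them.

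By their mean over the 20 libraries, the members spanned a wide range of levels. miR-499-5p was the 38th most abundant of the 1545 entries (2238 RPM), ahead of miR-208a-3p (157th, 56.2 RPM), miR-208a-5p (196th, 29.3 RPM) and miR-208b-3p (214th, 20.6 RPM). miR-208b-5p averaged 0.254 RPM, had reads in 13 of 20 libraries with a highest value of 1.46 RPM, and was too low to be tested. The other 4 members were among the 360 miRNAs that reached 5 RPM in 4 or more libraries, which were tested with limma on log2(RPM + 1). miR-499-5p exceeded every other member in every library, whereas the ranges of the 3 tested arms of miR-208 overlapped.

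**Figure D1:**
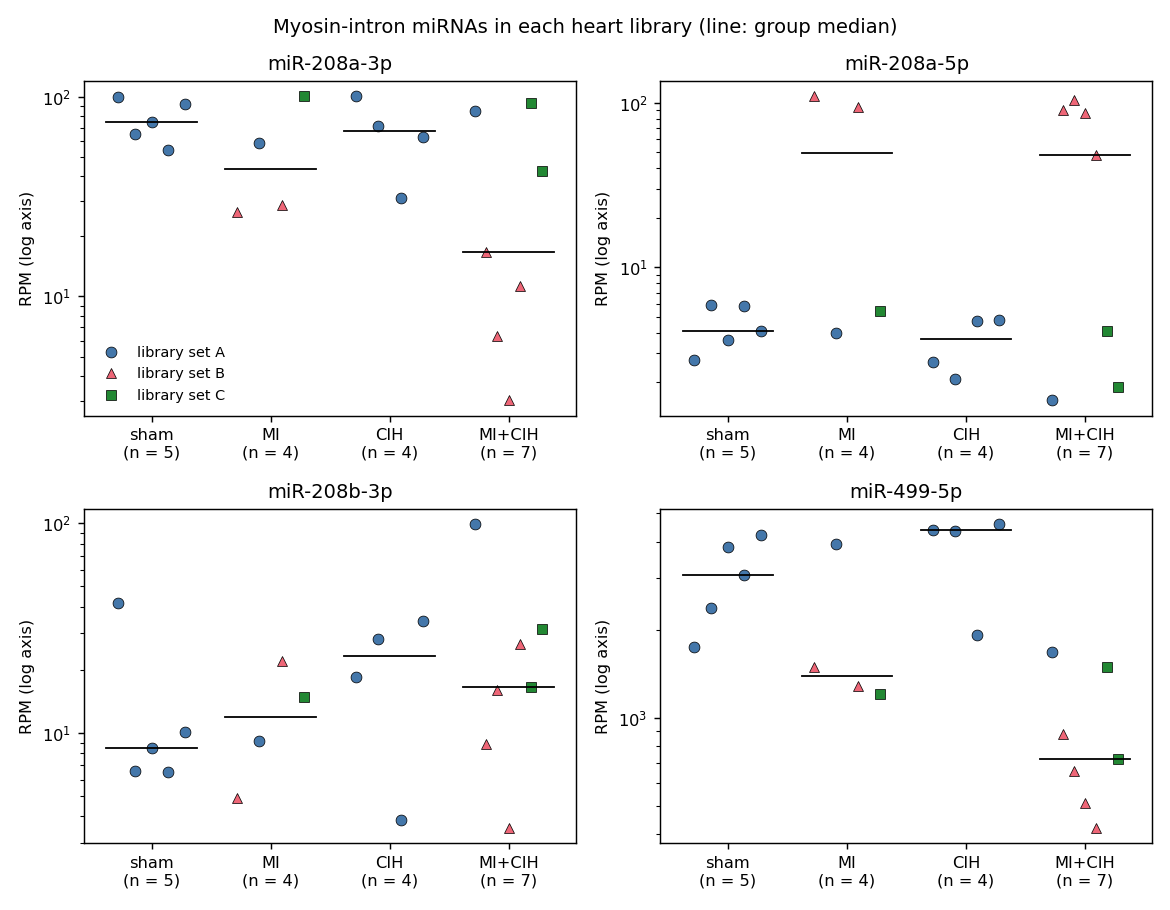
RPM of the members (log axis) in each library by group, with a line at the group median. For miR-499-5p all 7 MI+CIH libraries lie below all sham and all CIH libraries, and 3 of 4 MI libraries lie below all sham libraries. miR-208a-5p splits into libraries at 1.55 to 5.94 RPM and libraries at 47.9 to 109 RPM.

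The clearest pattern was a change of the dominant arm of miR-208a. In sham hearts miR-208a-3p, the arm with the UAAGACG seed, stood at 99.9, 64.9, 74.7, 54.2 and 92.1 RPM in replicates 1 to 5. The opposite arm, miR-208a-5p, stood at 2.74, 5.94, 3.62, 5.79 and 4.10 RPM in the same libraries. The 3p arm thus led in every sham heart.

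The CIH hearts had 100.2, 71.2, 30.9 and 63.0 RPM of miR-208a-3p and 2.66, 2.09, 4.74 and 4.81 RPM of miR-208a-5p. Each arm overlapped its sham range, and the 3p arm led in all 4. In the MI hearts miR-208a-3p stood at 26.6, 58.5, 28.6 and 100.4 RPM and miR-208a-5p at 109.3, 4.004, 93.6 and 5.46 RPM. MI 1 and MI 3 therefore had mostly the 5p arm, and MI 2 and MI 4 mostly the 3p arm.

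Among the 7 MI+CIH hearts miR-208a-3p ran from 3.01 RPM through a median of 16.7 to 93.2 RPM. miR-208a-5p ran from 1.55 RPM through a median of 47.9 to 103.8 RPM. MI+CIH 2 to 5 were low in the 3p arm and high in the 5p arm, and MI+CIH 1, 6 and 7 were the reverse.

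As a share of the miR-208a reads, the 5p arm made up 1.796% to 13.3% in the 11 libraries of set A (median 4.62%) and 4.199% to 5.15% in the 3 of set C. In the 6 libraries of set B it made up 76.6% to 96.6% (median 82.7%). The 5p arm was the major arm in 6 of 6 libraries of set B and in 0 of the 14 others. The 95% Wilson intervals of the libraries nearest to the gap were 10.2% to 17.1% in CIH 3 and 72.3% to 80.4% in MI 3. In MI+CIH 4, the library with the fewest reads, 6 reads of the 3p arm stood against 173 of the 5p arm. By group, the 5p arm was the major arm in 0 of 5 sham, 0 of 4 CIH, 2 of 4 MI and 4 of 7 MI+CIH hearts. All hearts of set B were infarcted, so set B and infarction cannot be told apart here, although the 5 infarcted hearts of sets A and C had mostly the 3p arm.

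**Figure D2:**
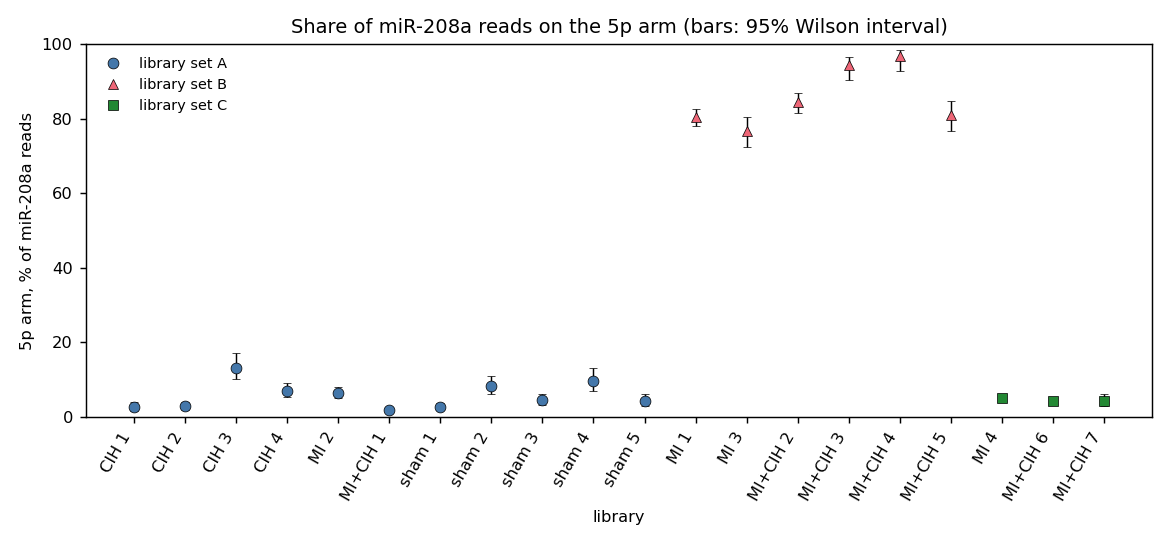
Percent of miR-208a reads from the 5p arm in each library, ordered by library set, with 95% Wilson intervals (counting error only). The 6 libraries of set B lie between 76.6% and 96.6%, and the other 14 at or below 13.3%.

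Among 117 hairpins with both arms measured, miR-208a had the largest difference in arm ratio between sets B and A. Its mean log2 ratio of the 3p to the 5p arm was 3.92 in set A, -2.72 in set B and 4.03 in set C. The difference of set B from set A was -6.65, against a median size of 1.11 over the 117 hairpins. The next were miR-106b (4.17), miR-455 (4.14), the muscle miRNA miR-133a (3.95) and miR-382 (-3.73). Differences over 2 occurred in 29 hairpins, the 2 sets did not overlap in 37, and the major arm differed in 17, so a shift of arms in set B was not limited to miR-208a. The sets came from clustering 348 entries outside the members and muscle miRNAs. Their separation in the other hairpins can therefore be partly built in. Between sets C and A the ratio of miR-208a differed by 0.11, which ranked 108th. The part of the arm shift of miR-208a in the results below was examined by summing the arms, and its cause was not tested.

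**Figure D3:**
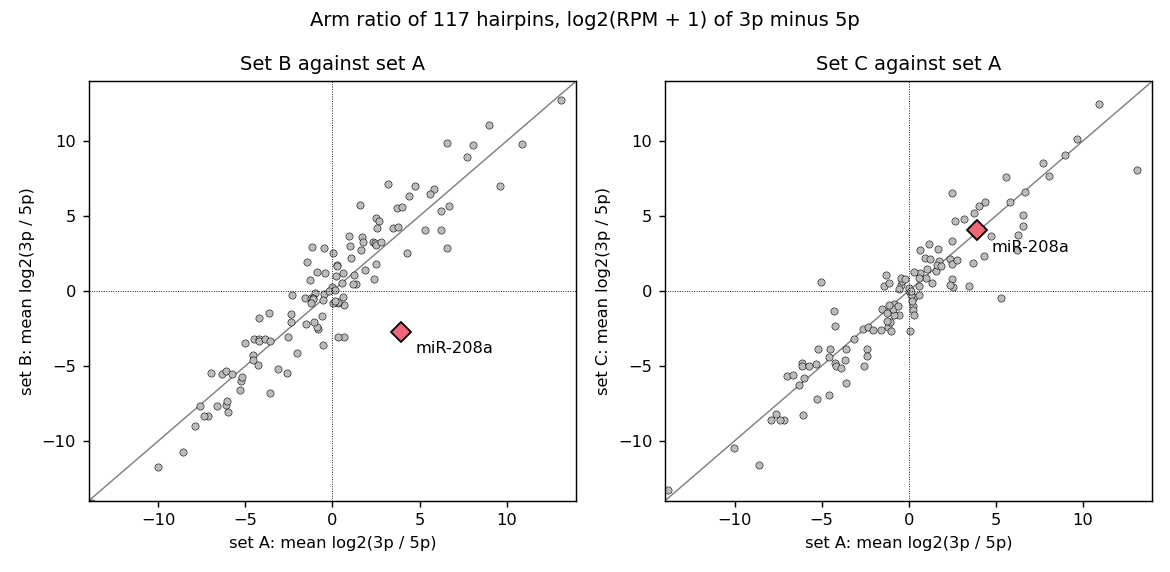
Mean log2 ratio of the 3p to the 5p arm of 117 hairpins in set B (left) and set C (right) against set A, each point a hairpin and the diagonal equality. miR-208a lies farthest from the diagonal for set B (-2.72 against 3.92) and close to it for set C (4.03).

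The close relative miR-208b kept its 3p arm in every library. Its 5p arm, counted with 0 to 7 reads, took 0% to 8.33% of miR-208b reads, the highest share being in MI+CIH 3 on 3 of 36 reads (95% Wilson interval 2.87% to 21.8%). The median share was 2.97% in set B and 0.223% in set A. miR-499 gave 99.977% to 100% of its reads from the 5p arm in the 20 libraries, and miR-499-3p did not exceed 0.586 RPM.

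Counted over both arms, miR-208a showed no change between groups that passed. The summed arms averaged 81.6 ± 17.7 RPM in sham, 107 ± 31.9 in MI, 69.9 ± 27.5 in CIH and 84.9 ± 24.5 RPM in MI+CIH (SD; n = 5, 4, 4 and 7), and all groups overlapped. In limma the summed arms changed by 0.02 on the log2 scale in MI+CIH against sham (95% interval -0.76 to 0.81, adjusted p 0.958). Against MI the change was -0.33 (-1.17 to 0.51, adjusted p 0.892), and against CIH it was 0.31 (-0.53 to 1.15, adjusted p 0.510). Summing the arms was chosen after the arms had been seen.

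Taken alone, miR-208a-3p fell in MI+CIH against sham. Its means were 36.8 ± 37.996 and 77.2 ± 18.9 RPM (SD, n = 7 and 5), and 5 of 7 MI+CIH hearts lay below every sham heart. These included all 4 MI+CIH libraries of set B, where the 5p arm was the major arm. Over all miRNAs tested this count was not made. The log2 change was -1.82 (SE 0.67, adjusted p 0.0265). limma called 204 of the 360 miRNAs in this comparison, 56.7% in either direction, 52.2% as higher and 4.44% as lower. Of the 4 members tested, 2 were called, both of them lower. The median change of all miRNAs tested was 1.39, and that of miR-208a-3p relative to it was -3.21. With library set as a term in the fit the change was -0.58 (adjusted p 0.735), and over sets A and C alone it was -0.11 (adjusted p 0.838). The call was also lost when any 1 of sham 1, sham 3, sham 5, MI+CIH 3, MI+CIH 4 or MI+CIH 5 was left out (adjusted p 0.0517 to 0.0605).

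The 5p arm of miR-208a changed by 1.96 on the log2 scale in MI+CIH against sham (SE 0.98, adjusted p 0.0899), which did not pass. This arm met the filter of 5 RPM in 4 or more libraries only through set B, where it stood at 47.9 to 109 RPM. Its highest value outside set B was 5.94 RPM, so its tests restate the set B values. Against CIH, miR-208a-3p changed by -1.52 (SE 0.71, adjusted p 0.0720) and miR-208a-5p by 2.22 (SE 1.05, adjusted p 0.0726). In that comparison 56.9% of the miRNAs tested were called, 54.7% of all tested as higher and 2.22% as lower, and the median change was 1.51. Of the 4 members tested 1 was called, miR-499-5p.

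MI+CIH against MI gave no call for any member. miR-208a-3p changed by -1.12 (SE 0.71) and miR-208a-5p by -0.23 (SE 1.05), with adjusted p of 0.895 and 0.942. limma called 0 of the 360 miRNAs here (0%), 17 were under 0.05 before adjustment, and edgeR and DESeq2 on the recovered reads made 0 calls each. With library set as a term limma called 2 miRNAs (0.556%), none of them a member. Inside the sets, 6 of 7 MI+CIH hearts had less miR-208a-3p than every MI heart of their set, and the same held for miR-208a-5p and for the summed arms. Sets A and C held 1 MI heart each. The same count was 7 of 7 for miR-1a-3p, 5 of 7 for miR-133a-5p and 4 of 7 for miR-133a-3p. Over all miRNAs tested it was not made. In set B miR-208a-3p averaged 9.31 ± 5.96 RPM in 4 MI+CIH and 27.6 ± 1.44 RPM in 2 MI hearts. With the set term the change was -0.97 (SE 0.42, adjusted p 0.301).

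miR-208b-3p, from the host of the beta chain, had the lowest mean of the 4 tested members over all 20 libraries, but in sham and CIH hearts miR-208a-5p was lower still (4.44 against 14.7 RPM and 3.57 against 21.2 RPM). It stood at 41.7, 6.61, 8.50, 6.49 and 10.1 RPM in sham and at 4.90, 9.18, 22.1 and 14.8 RPM in MI. In CIH it stood at 18.6, 28.1, 3.87 and 34.3 RPM, and in MI+CIH it ran from 3.52 RPM through a median of 16.5 to 99.3 RPM. Sham 1 and MI+CIH 1 were the high libraries of their groups, and every pair of groups overlapped.

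The mean of miR-208b-3p in sham was 14.7 ± 15.2 RPM (SD, n = 5) and 7.93 ± 1.72 RPM without sham 1. In MI+CIH it was 28.9 ± 32.5 RPM (n = 7). No change of miR-208b-3p passed: in MI+CIH against sham it was 0.71 (SE 0.67, adjusted p 0.362), against MI 0.70 (SE 0.72, adjusted p 0.895) and against CIH 0.16 (SE 0.72, adjusted p 0.855). In MI against sham it was 0.01 (SE 0.77, adjusted p 0.997). The sign of the change in MI against sham, in MI+CIH against sham and in MI+CIH against CIH turned with TMM or median-of-ratios scaling, so no direction is given for this miRNA. Within sets, 4 of 7 MI+CIH hearts had more of it than every MI heart of their set and 1 had less.

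The ratio of miR-208b-3p to miR-208a-3p compares the products of the beta and alpha chain genes inside a library, where scaling drops out apart from the pseudocount of 1 RPM. The log2 ratio was -1.24, -3.11, -2.99, -2.88 and -3.07 in sham, and -2.22, -2.55, -0.36 and -2.69 in MI. In CIH it was -2.37, -1.31, -2.71 and -0.86. In MI+CIH it ran from -2.43 to 1.22, and 6 of 7 hearts lay above every sham heart.

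The mean ratio was -0.13 ± 1.27 in MI+CIH against -2.66 ± 0.80 in sham (SD, n = 7 and 5), a difference of 2.53 (exact permutation test, two-sided, p 0.00631, adjusted p 0.0631 over 10 comparisons of ratios). Against MI (-1.95 ± 1.08) the difference was 1.82 (exact p 0.0515, adjusted p 0.172), and against CIH (-1.81 ± 0.87) it was 1.68 (exact p 0.0485, adjusted p 0.172). None passed after adjustment. With each library left out in turn, the adjusted p ran from 0.0216 to 0.152 against sham and from 0.0476 to 0.333 against CIH. It passed in 1 of 12 and 1 of 11 fits, both without MI+CIH 6, the MI+CIH heart with the lowest ratio (-2.43). Within sets, MI+CIH exceeded MI by 2.77 in set A (1 heart each), by 1.72 in set B (4 and 2) and by 1.26 in set C (2 and 1). In set A, MI+CIH 1 lay 2.88 above the sham mean and 2.03 above the CIH mean.

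The ratio depended on the arm counted. With both arms of each hairpin summed, MI+CIH averaged -2.02 ± 1.63 and sham -2.73 ± 0.82, a difference of 0.71 (exact permutation test, two-sided, p 0.384, adjusted p 0.480). The summed ratio differed by 1.05 between MI+CIH and MI (adjusted p 0.403) and by -0.12 between MI+CIH and CIH (adjusted p 0.903).

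**Figure D4:**
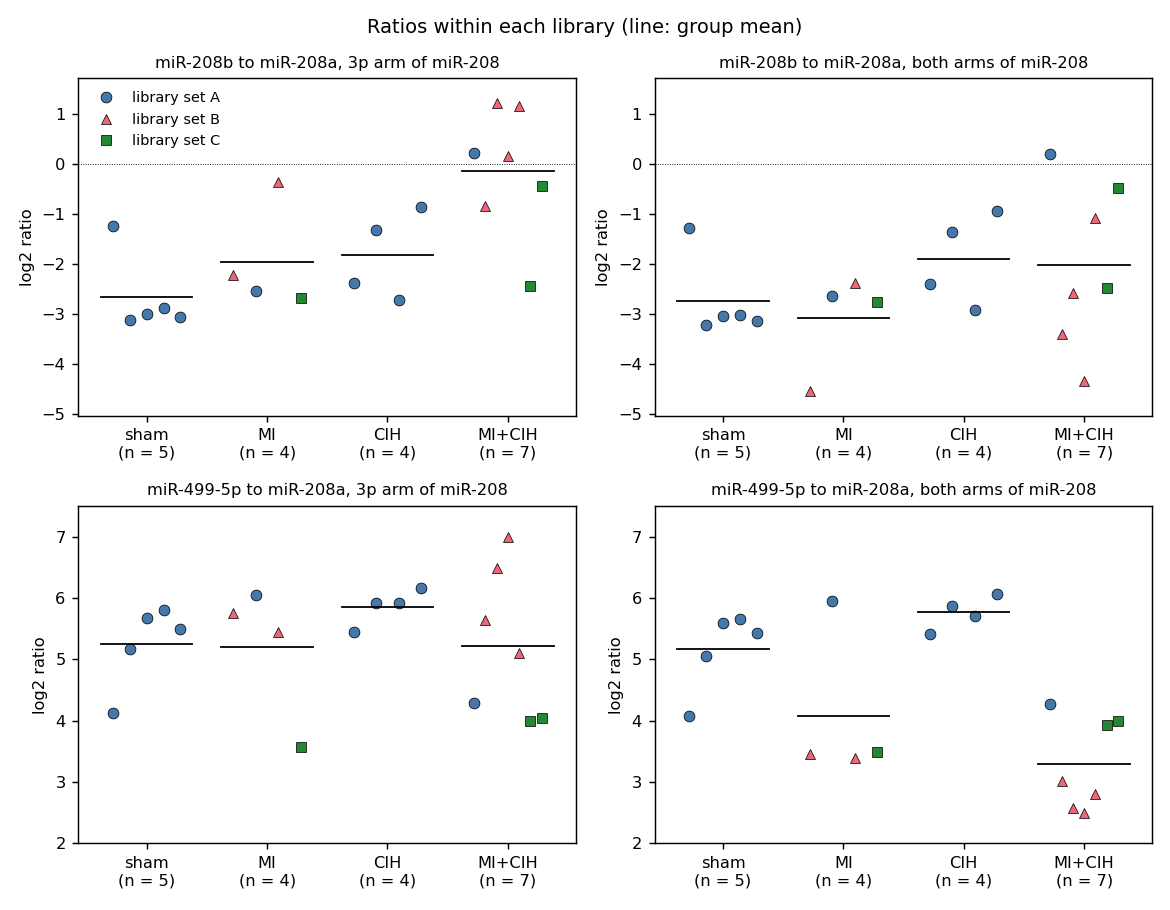
Log2 ratios within each library by group, miR-208b to miR-208a above and miR-499-5p to miR-208a below, with the 3p arms of miR-208 on the left and both arms on the right (lines, group means). The mean ratio of miR-208b to miR-208a in MI+CIH is -0.13 with the 3p arms and -2.02 with both arms.

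miR-499-5p was the member with the smallest adjusted p, and its low values were not limited to MI+CIH. It stood at 1751, 2376, 3839, 3069 and 4208 RPM in sham, and at 4396, 4348, 1923 and 4598 RPM in CIH. In MI it stood at 1496, 3919.8, 1283 and 1202 RPM. In MI+CIH it ran from 419 RPM through a median of 719.8 to 1683 RPM. All 7 MI+CIH hearts lay below all sham and all CIH hearts, and 5 of 7 lay below all MI hearts. For miR-133a-5p, too, 7 of 7 MI+CIH hearts lay below all sham hearts, beside 5 of 7 for miR-1a-3p and 0 of 7 for miR-133a-3p. The counts below all CIH hearts were 3, 6 and 0 of 7 for these miRNAs. How many of all miRNAs tested separate in this way is not given, so the separation is not shown to be particular to miR-499-5p.

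miR-499-5p averaged 908 ± 489 RPM in MI+CIH and 3048 ± 1013 RPM in sham (SD, n = 7 and 5), and the log2 change was -1.84 (SE 0.43, adjusted p 0.00272). Against CIH (3816 ± 1267 RPM, n = 4) it fell by 2.16 (SE 0.46, adjusted p 0.00199). Relative to the median change of all miRNAs in these comparisons, it changed by -3.24 and -3.67. It fell in both with each library left out in turn.

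Library set moved with this change too. MI 2 and MI+CIH 1 were the only infarcted hearts in the set of the sham and CIH hearts. With the set term the changes were -0.65 (adjusted p 0.687) and -0.97 (adjusted p 0.283). With set B left out they were -1.25 (adjusted p 0.0488) and -1.57 (adjusted p 0.0182), and both calls were kept. In set A the value of MI+CIH 1, 1683 RPM, lay below all 10 other libraries.

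Against MI, miR-499-5p changed by -1.10 (SE 0.46, 95% interval -2.06 to -0.14), with an adjusted p of 0.834 and the 10th smallest p of the 360. With the set term the change was -0.95 (SE 0.32, adjusted p 0.171). The MI mean was 1975 ± 1302 RPM (n = 4) and, without MI 2, 1327 ± 152 RPM. In set B the means were 616 ± 199 RPM in 4 MI+CIH and 1389 ± 150 RPM in 2 MI hearts. Over the sets, 6 of 7 MI+CIH hearts lay below every MI heart of their set, beside 7 of 7 for miR-1a-3p. The exception was in set C, where MI 4 had 1202 RPM and MI+CIH 6 and 7 had 1490.0 and 719.8 RPM.

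MI or CIH alone gave no call for any member. In MI against sham, miR-499-5p changed by -0.74 (SE 0.50, adjusted p 0.258), miR-208a-3p by -0.70 (SE 0.76, adjusted p 0.502) and miR-208a-5p by 2.19 (SE 1.12, adjusted p 0.192). Of 360 miRNAs limma called 0 (0%) and 101 were under 0.05 before adjustment; DESeq2 made 39 calls and edgeR 0. In CIH against sham, miR-499-5p changed by 0.31 (SE 0.50), miR-208a-3p by -0.30 (SE 0.76), miR-208a-5p by -0.26 (SE 1.12) and miR-208b-3p by 0.55 (SE 0.77), all with an adjusted p of 0.998. There limma called 0 (0%) and 1 was under 0.05 before adjustment; DESeq2 made 1 call and edgeR 0. The interaction, the effect of CIH in infarcted hearts minus that in sham hearts, was -1.41 for miR-499-5p (SE 0.68, adjusted p 0.880). For it limma called 0 miRNAs (0%) and 14 were under 0.05 before adjustment; neither edgeR nor DESeq2 made a call.

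**Figure D5:**
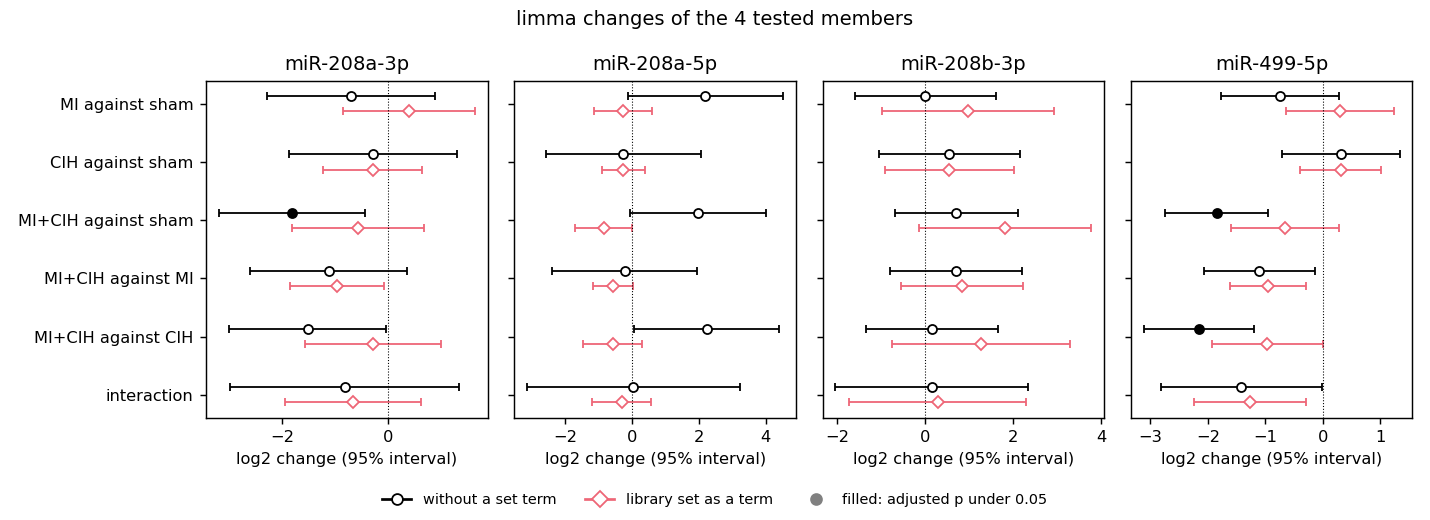
limma log2 changes with 95% intervals for the 4 tested members in 6 contrasts, without and with library set as a term. For miR-499-5p in MI+CIH against sham the change is -1.84 without the term and -0.65 with it.

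The ratio of miR-499-5p to miR-208a-3p showed no difference between groups that passed (adjusted p at least 0.317 in 5 exact permutation comparisons, adjusted over the same 10). Its mean was 5.22 ± 1.21 in MI+CIH and 5.25 ± 0.67 in sham, with 5.20 ± 1.12 in MI and 5.86 ± 0.30 in CIH. With both arms of miR-208a summed, the ratio was 3.30 ± 0.74 in MI+CIH and 5.16 ± 0.65 in sham. That difference was -1.87 (exact permutation p 0.00505, adjusted p 0.0253), and against CIH it was -2.47 (exact permutation p 0.00303, adjusted p 0.0253). The summed ratio, added after the arms had been seen, was lower in all 7 MI+CIH hearts than in every CIH heart, and in 6 of 7 than in every sham heart. All sham and CIH libraries lie in set A, so these p-values cannot separate group from library set. MI+CIH 1, of set A, had a summed ratio of 4.27, above sham 1 (4.08). Among MI libraries it was 3.45 and 3.38 in MI 1 and MI 3 (set B), 3.49 in MI 4 (set C) and 5.95 in MI 2 (set A).

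Other miRNAs of muscle did not move as one with the members. The list held 12 entries, of which 8 were tested, and some of it had been seen in earlier results of these data. In MI+CIH against sham 4 were called higher and 3 lower, with a median change of 0.77 against 1.39 over all miRNAs tested. miR-1a-3p, the most abundant miRNA of heart muscle, fell by 0.82 (adjusted p 0.0313), and miR-133a-5p fell by 1.21 (adjusted p 0.0307). miR-133a-3p, from the same hairpin as miR-133a-5p, rose by 1.60 (adjusted p 0.0150), which was 0.21 above the median change of all miRNAs tested. miR-1b-5p was also called lower, by 0.82 (adjusted p 0.0313), nearly the same as miR-1a-3p. Whether the 2 entries share reads is not given in the sources used here. miR-206-3p, typical of skeletal muscle, rose by 5.83 (adjusted p 0.00143), and miR-486a-5p and miR-486a-3p rose by 2.51 and 2.42 (adjusted p 0.0133 and 0.0143). The 2 entries of miR-486a also stood at nearly equal levels, with a mean log2 3p to 5p ratio of 0.13, 0.03 and -0.004 in sets A, B and C. Whether they share reads is not given either, so the counts of calls and medians here and below may hold the same reads more than once. With the set term limma called 0 of all miRNAs tested, with 21 under 0.05 before adjustment. The changes were then -0.39 for miR-1a-3p, -0.26 for miR-133a-5p and 2.17 for miR-206-3p, and the sign turned for miR-133a-3p (-0.13), miR-486a-5p (-0.48) and miR-486a-3p (-0.45).

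Against CIH 4 of the 8 were called higher and 2 lower, with a median of 1.20 beside 1.51 for all miRNAs tested. miR-1a-3p fell by 1.02 and miR-133a-3p rose by 1.85, and miR-206-3p rose by 5.31, miR-486a-5p by 2.31 and miR-486a-3p by 2.21. With the set term limma called 0 of all miRNAs tested, with 62 under 0.05 before adjustment. miR-1a-3p then changed by -0.59, miR-133a-3p by 0.12 and miR-206-3p by 1.65, and the sign turned for miR-486a-5p (-0.68) and miR-486a-3p (-0.67). miR-133a-5p changed by -1.13 (adjusted p 0.0544). In MI against sham, CIH against sham and MI+CIH against MI, 0 of the 8 were called, with medians of 0.86, 0.20 and -0.08 beside 0.94, -0.21 and 0.41 for all.

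Summed levels of cell type markers, lists of miRNAs typical of a cell type, are given beside these changes, with their calls in MI+CIH against sham, where 52.2% of all miRNAs tested were called higher and 4.44% lower. The summed heart muscle markers (3 of 3 tested) ran from 191766 to 275739 RPM in sham, 163135 to 297162 RPM in MI, 248817 to 315901 RPM in CIH and 88087 to 268861 RPM in MI+CIH, with 1 called higher and 2 lower. The 6 leukocyte markers summed to 325 to 707 RPM in sham, 255 to 2387 RPM in MI, 293 to 573 RPM in CIH and 628 to 3299 RPM in MI+CIH, and 3 of them were called higher. The 6 fibroblast and matrix markers summed to 18282 to 102503 RPM in sham and 10165 to 109917 RPM in MI+CIH, with 4 called higher. In MI and CIH they summed to 11850 to 22309 RPM and 13520 to 17147 RPM. Endothelial markers, 2 in all, ran from 8459 to 10682 RPM in sham and from 3162 to 50262 RPM in MI+CIH, with 1 called lower. Their range in MI was as wide, 5397 to 47505 RPM, and in CIH it was 5976 to 10970 RPM. The 4 smooth muscle and mural markers ran from 199075 to 261534 RPM in sham and from 33916 to 272889 RPM in MI+CIH, with 1 called higher. In MI and CIH they ran from 26340 to 196229 RPM and from 134671 to 246659 RPM. The 3 erythroid markers ran from 333 to 3282 RPM in sham and from 1122 to 5687 RPM in MI+CIH, with 1 called lower. In MI and CIH they ran from 108 to 934 RPM and from 600 to 1986 RPM. The 2 skeletal muscle markers ran from 96.0 to 194 RPM in sham and from 118 to 949 RPM in MI+CIH, with 1 called higher. In MI and CIH they ran from 96.2 to 460 RPM and from 38.7 to 188 RPM. Of these markers only miR-142a-3p and miR-206-3p had 0 reads in any library, in 1 MI library and in 3 sham or CIH libraries. Their part in the change of the members was not tested.

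Across the 20 libraries the patterns nearest to miR-208a-5p, miR-208a-3p and miR-499-5p correlated less once the library sets were accounted for. Since these patterns were picked by r before that step, part of the loss is built in by the choice. For miR-208a-5p they were miR-30c-2-3p (Pearson r 0.98), miR-150-5p (0.97) and miR-125a-3p (0.96), and r was 0.56, 0.64 and 0.20 after the mean of each set was subtracted. For miR-208a-3p they were miR-29c-3p (0.90), miR-126b-5p (0.88) and miR-542-3p (0.88), with 0.66, 0.85 and 0.60 after subtraction. For miR-499-5p they were miR-192-5p (0.85), miR-133a-5p (0.85) and miR-135a-5p (0.82), with 0.50, 0.68 and 0.47 after subtraction. Over the 20 libraries miR-208b-3p had no pattern as close, the nearest being miR-340-5p (0.60), miR-369-3p (0.59) and miR-181c-3p (0.57). After subtraction their r was 0.70, 0.58 and 0.57. Picked by r after subtraction instead, other miRNAs came first for each tested member. The highest r was then 0.87 for miR-208a-3p, 0.75 for miR-499-5p, 0.71 for miR-208b-3p and 0.67 for miR-208a-5p. These correlations are descriptions, since the points share library, depth and set.

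Among the members, the 2 arms of miR-208a ran opposite to each other over the 20 libraries (r -0.83), and not within the sets (r -0.01 after subtraction of set means). miR-208a-3p and miR-499-5p ran together, with an r of 0.74 and 0.56 after subtraction. miR-208b-3p was related to neither miR-208a-3p (0.35, and 0.32 after subtraction) nor miR-499-5p (0.00 and -0.20) to a like degree. With miR-208a-5p its r was -0.36, and -0.70 after subtraction.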

How the data were processed

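Small RNA was extracted from frozen hearts with Trizol, and libraries were made with a NEBNext small RNA kit from 3 µg of total RNA, per the labels' protocols. The submitters' processing notes name build mm10, Bowtie and DESeq 1.8.3, with no role for each, and the miRBase release and counting rules are not given in the sources used here. The deposited table is headed TPM. By its values it holds RPM computed by the authors: each column sums to 1000000, and within a tolerance of 0.05 reads 100% of values were whole reads, which were recovered. Of the 1545 entries 118 are predicted.

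Values were taken as log2(RPM + 1) and the 360 miRNAs that reached 5 RPM in 4 or more libraries were tested with limma 3.58.1 (R 4.3.3, trend, two-sided, 1 mean per group over 20 libraries, 16 residual degrees of freedom, prior 5.90). p was adjusted by Benjamini-Hochberg, threshold 0.05, and adjusted p without another tool named are limma's. "Rose" and "fell" are used past that threshold. Within-library ratios were tested by exact permutation. Nothing in the labels says that libraries of a group come from separate animals, so p-values measure the spread between libraries, which may be technical. Library sets came from clustering 348 entries, with members and muscle miRNAs left out and the number of sets fixed at 3. Sequences were copied from RefSeq (GRCm38.p6) and intron positions from GENCODE M21.

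The members and lists were chosen with earlier results of these data known. Named miRNAs were the members, the muscle miRNAs past the threshold with miR-1a-3p and both arms of miR-133a, and the 3 miRNAs nearest to each member by r. Alternatives were pseudocounts of 0.5 and 5 RPM, other filters, TMM and median-of-ratios scaling, a replicate block, the set term (14 residual degrees of freedom, prior 5.34), the groups compared alone, leaving out libraries, and edgeR 4.0.16 and DESeq2 1.42.0 on the recovered reads. Summed arms and sets A and C alone were added after seeing the data. The fit and the permutation test were tested on simulated data. All 5 members are reported, with miR-208b-5p below the filter.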

Additional observations from a re-analysis of the deposited data

Results flagged for a closer look

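Of 32 groups of values examined, 6 held a library farther from the rest than Dixon's 95% limit. Chance flags about 1 group in 20. miR-208b-3p was 41.7 RPM in sham 1, against 6.49 to 10.1 RPM in the other sham hearts, and 99.3 RPM in MI+CIH 1, against 3.52 to 31.4 RPM in the others. The ratio of miR-208b-3p to miR-208a-3p in sham 1 was -1.24, against -3.11 to -2.88. miR-499-5p was 3919.8 RPM in MI 2, against 1202 to 1496 RPM in the other MI hearts, and 1923 RPM in CIH 3, against 4348 to 4598 RPM. miR-208b-5p was 0.590 RPM in MI 3, on 2 reads, against 0 to 0.0551 RPM. MI 2 and MI+CIH 1 are the only infarcted hearts in the library set of sham and CIH.

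miR-208b-5p, which was below the filter and entered no test, exceeded its highest sham value of 0.195 RPM on more than 3 reads in 3 libraries: 0.422 RPM in CIH 4 (5 reads), 0.222 RPM in MI+CIH 1 (4 reads) and 1.19 RPM in MI+CIH 5 (7 reads). On 3 reads or fewer it also exceeded that value in MI 3, given above, in MI+CIH 2 (0.306 RPM, 2 reads) and in MI+CIH 3 (1.46 RPM, 3 reads).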

How the results depend on the processing

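The call of miR-499-5p in MI+CIH against sham and against CIH ended only with the set term (-0.65 and -0.97). That of miR-208a-3p in MI+CIH against sham ended with no filter (-1.82, adjusted p 0.0830), edgeR (-1.96), the set term (-0.58), sets A and C alone (-0.11) and without sham 1 and MI 2 (-1.72), and its sign turned with summed arms (0.023). miR-208a-3p was called in MI+CIH against CIH with TMM (-3.11) and median-of-ratios scaling (-3.02). The cause was not tested.

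Signs of changes that were not called turned as follows. For miR-208b-3p in MI against sham the value was -0.0052 with a pseudocount of 5 RPM, -0.82 with TMM, -0.76 with median-of-ratios, -1.14 with edgeR and -0.87 with DESeq2. In MI+CIH against sham it was -0.58 with TMM and -0.48 with median-of-ratios, and against CIH -1.42, -1.32, -0.65 with edgeR and -0.62 with DESeq2. Its interaction was -0.60 with TMM, -0.56 with median-of-ratios and -0.39 without sham 1 and MI 2. The interaction of miR-208a-5p was -0.68 with TMM, -0.60 with median-of-ratios, -0.32 with the set term, -0.60 without sham 1 and MI 2, -0.50 over sets A and C, -0.47 with edgeR and -0.40 with DESeq2. With the set term MI against sham gave 0.39 for miR-208a-3p, -0.27 for miR-208a-5p and 0.30 for miR-499-5p, and miR-208a-5p gave -0.86 in MI+CIH against sham and -0.59 against CIH. Over sets A and C miR-208a-3p gave 0.026 in MI against sham, 0.18 in MI+CIH against CIH and 0.16 in the interaction, and miR-208a-5p gave -0.66 in MI+CIH against sham and -0.40 against CIH. For miR-208a summed arms gave 0.35 in MI against sham; in MI+CIH against CIH they gave 0.31. DESeq2 gave 0.018 for miR-208a-3p in CIH against sham.

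Replicate numbers did not pair the libraries: of 25 pairs with the same number 10 correlated above 0.1, the median r was -0.01 as for other pairs, and 4 of 20 libraries correlated best with their own number. With the replicate block miR-208a-5p, which met the filter only through set B, was called in MI+CIH against sham (2.93) and against CIH (3.16). miR-208a-3p was called against CIH (-2.16). The sign turned for miR-208a-5p in MI+CIH against MI (0.71) and for miR-208b-3p against CIH (-0.0024) and in the interaction (-0.071). The block gave 218 calls in MI+CIH against sham and 211 against CIH.

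Counts of called miRNAs, 204 in MI+CIH against sham, were 135 with no filter, 92 at a mean of at least 50 RPM, 106 with TMM, 114 with median-of-ratios, 0 with the set term, 125 over sets A and C and 85 with edgeR. Against CIH, 205 became 94, 89, 94, 0 and 75 with the stricter filter, TMM, median-of-ratios, the set term and edgeR, and 133 with DESeq2. In MI against sham, 0 became 14 at a mean of at least 50 RPM, 114 without sham 1 and MI 2 and 39 with DESeq2. DESeq2 called 1 in CIH against sham, and the set term gave 2 in MI+CIH against MI.

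The ratio of miR-499-5p to miR-208a-3p in MI+CIH against sham was 0.022 with a pseudocount of 0.5 RPM and -1.87 with summed arms. Against MI it was -0.21 with a pseudocount of 5 RPM, -0.77 with summed arms, -0.70 over sets A and C and -1.75 within set A, and against CIH -2.47 with summed arms. The ratio of miR-208b to miR-208a with summed arms was -0.34 for MI compared with sham and -0.12 in MI+CIH against CIH.

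With each library left out, MI+CIH against sham gave -2.17 to -1.41 for miR-208a-3p and 1.57 to 2.46 for miR-208a-5p. The latter, which met the filter only through set B, was called in 3 of 20 fits. Against CIH miR-208a-3p and miR-208a-5p gave -1.87 to -1.11 and 1.83 to 2.72, and miR-208b-3p -0.46 to 0.52. miR-208b-3p ran from -0.30 to 0.47 in MI against sham and from -0.47 to 0.51 in the interaction, miR-208a-5p from -0.99 to 0.50 in MI+CIH against MI and from -0.72 to 0.77 in the interaction, and miR-208a-3p from -0.53 to 0.024 in CIH against sham. Calls ran from 0 to 113 in MI against sham and from 0 to 3 in MI+CIH against MI. The ratio of miR-208b-3p to miR-208a-3p ran from 2.30 to 2.91 against sham and from 1.38 to 2.06 against CIH in MI+CIH. That of miR-499-5p to miR-208a-3p ran from -0.33 to 0.50 in MI against sham; for MI+CIH it ran from -0.32 to 0.18 against sham and from -0.53 to 0.30 against MI.

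The stricter filter left no value for miR-208a-5p and miR-208b-3p, and the interaction has no fit of fewer groups. Depth limits the members in MI+CIH 4, which held 6 reads of miR-208a-3p and 7 of miR-208b-3p.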
